A study of Mus musculus with 2 samples.

Results

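The aryl hydrocarbon receptor (AHR) pathway genes are described here in regulatory innate lymphoid cells, the ILCregs of the labels. The pathway was listed as 9 genes, namely Ahr, Ahrr, Arnt, Arnt2, Cyp1a1, Cyp1b1, Tiparp, Nqo1 and Ido1. A gene was measured where an array feature carried its symbol and no other in the platform annotation. This held for 8 of the 9 genes, each with 1 feature, among 28281 genes named in the same way. No feature was named Cyp1b1 in the annotation used, so this dioxin-inducible monooxygenase gene was not analysed here.

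The mice were IL-10-GFP knockin animals on the C57BL/6 background, in which the Il10 locus carries green fluorescent protein, and their small intestine was taken for sorting at 8 weeks of age. They were housed under specific pathogen-free conditions. All samples share this genotype, age and sort, and there was 1 group of 2 arrays, replicate 1 and replicate 2. The labels do not say whether the replicates came from separate mice or sorts, or whether animals were pooled, and their spread may then be technical only. No other cell population or treatment was analysed here, so groups could not be tested against each other, and the text gives no p-value. RNA was amplified with a whole-transcript kit and hybridised to Affymetrix arrays, and each value is a signal taken as log2.

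AHR is a ligand-activated transcription factor of the bHLH-PAS family. In the absence of ligand it is held in the cytosol by a chaperone complex built around HSP90, and dietary indoles, microbial tryptophan metabolites and dioxins release it to the nucleus, where it pairs with ARNT and binds DNA at xenobiotic response elements. In the intestine AHR is known for the maintenance of group 3 innate lymphoid cells and intraepithelial lymphocytes. Cyp1a1, Ahrr and Tiparp are classical targets, and the products of all 3 limit the signal, by degrading the ligand, by competing for ARNT and by ADP-ribosylating the receptor.

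The promoters of these 3 targets are shown because the targets were divided in their signal. Each sequence, from RefSeq on GRCm38.p6, runs 5′ to 3′ on the strand of the gene from 250 bases before the start site to 50 bases after it, and capitals mark the core of the xenobiotic response element, GCGTG, on either strand (CACGC on the other one). The Tiparp window is chr3:65528197-65528496 on the plus strand, the Cyp1a1 window chr9:57697363-57697662 on the plus strand, and the Ahrr window chr13:74292282-74292581 on the minus strand.
Tiparp: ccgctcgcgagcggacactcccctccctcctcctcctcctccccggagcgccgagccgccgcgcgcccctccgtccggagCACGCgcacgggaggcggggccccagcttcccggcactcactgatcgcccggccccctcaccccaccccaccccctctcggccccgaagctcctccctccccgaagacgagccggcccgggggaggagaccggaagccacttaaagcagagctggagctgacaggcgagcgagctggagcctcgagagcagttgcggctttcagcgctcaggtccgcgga
Cyp1a1: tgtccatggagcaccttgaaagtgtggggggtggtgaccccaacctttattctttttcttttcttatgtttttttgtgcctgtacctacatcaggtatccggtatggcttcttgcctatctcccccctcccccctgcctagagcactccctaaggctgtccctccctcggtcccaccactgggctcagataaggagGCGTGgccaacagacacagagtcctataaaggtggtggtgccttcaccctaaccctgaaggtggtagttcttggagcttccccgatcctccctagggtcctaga
Ahrr: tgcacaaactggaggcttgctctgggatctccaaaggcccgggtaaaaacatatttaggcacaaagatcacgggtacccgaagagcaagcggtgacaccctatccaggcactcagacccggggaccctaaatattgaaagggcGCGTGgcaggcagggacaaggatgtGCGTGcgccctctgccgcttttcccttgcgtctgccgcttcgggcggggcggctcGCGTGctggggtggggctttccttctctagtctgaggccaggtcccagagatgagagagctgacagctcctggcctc

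The Ahrr window held 3 copies of the core, which began 107, 82 and 27 bases before the start site. The Cyp1a1 window held 1 copy, 54 bases before the start, and the Tiparp window held 1 copy on the opposite strand, 170 bases before it. Of the 7 listed genes with a promoter in the sequence table, 5 held the core (Arnt and Cyp1b1 with 1 copy each besides these) and Arnt2 and Nqo1 did not. The core is short, and 32.4% of all 32851 promoter windows of this length held it. It is also one form of the core bound by the hypoxia-inducible factors with ARNT. The longer form TNGCGTG, which contains the core, was found in Ahrr alone among the listed genes and in 5.07% of all windows. The antioxidant response element core TGACNNNGC, bound by NRF2, was found in 12.4% of all windows and, among the listed genes, in Arnt alone, with 2 copies. A match describes the letters and does not show a bound site. Sequence outside these windows was not searched, so copy counts hold for the window only. A window without a match does not show that the gene lacks such an element.

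As a reference for signal without transcript, 1348 genes of olfactory, vomeronasal and taste receptors were used, which intestinal lymphocytes are not known for. Their 95th percentile set the threshold, which was 6.72 for replicate 1 and 6.18 for replicate 2. Genes past it on both arrays were called above, which held for 2.45% of the reference genes themselves. The absence of a gene below the threshold is not shown, since its signal only could not be told from the reference. Probes differ in affinity, so signals of different genes do not order their transcripts by abundance. The receptor gene Ahr, its partner gene Arnt and the target Tiparp were above the threshold, and Ahrr, Arnt2, Cyp1a1, Nqo1 and Ido1 were not above it on either array. These 3 of 8 genes (37.5%) stand beside 32.0% of all named genes, and 39.2% of those outside the reference that code for protein. The share of AHR pathway genes above the threshold was therefore near the background, and what follows describes which genes were on either side.

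**Figure D1:**
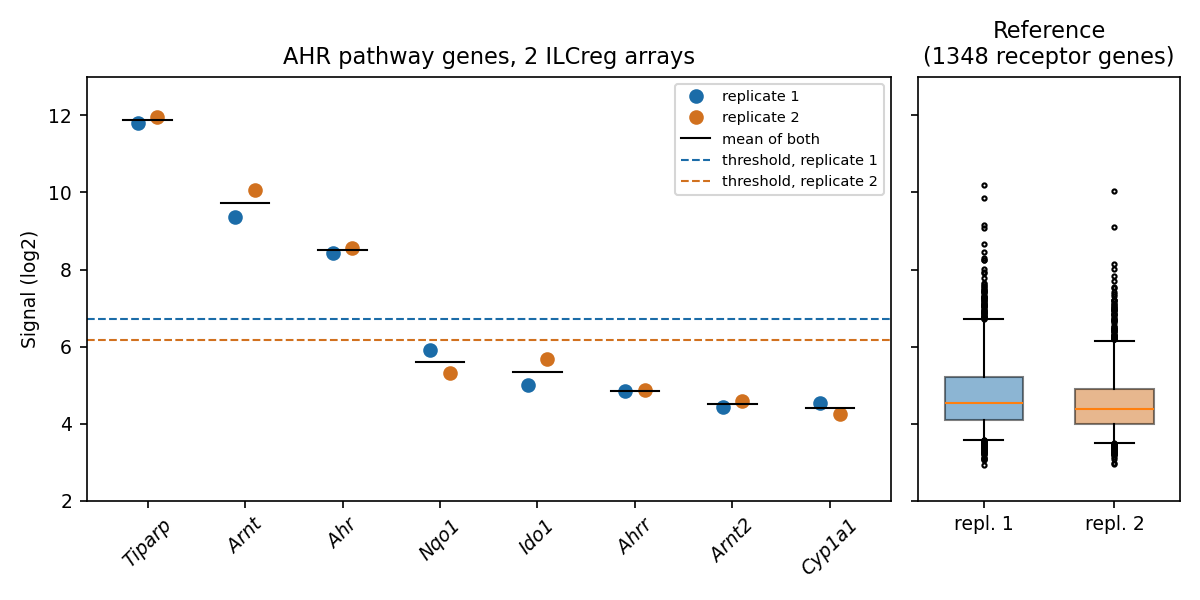
Signal (log2) of the 8 measured AHR pathway genes on the arrays of replicates 1 and 2 (points) with their mean (bar) and the threshold of each array (dashed lines), beside box plots of the 1348 reference genes (line, median; box, quartiles; whiskers, percentiles 5 and 95). Tiparp, Arnt and Ahr lay above both dashed lines on both arrays, and the other 5 genes lay below both.

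The receptor and its partner were above the reference. Ahr had a signal of 8.44 for replicate 1 and 8.56 for replicate 2, a mean of 8.50 ± 0.09 (SD, n = 2). It exceeded the threshold by 1.71 and 2.38 on the log2 scale, and 6 and 2 of the 1348 reference genes were higher on the same arrays. Arnt, the obligate partner of AHR that also pairs with the hypoxia-inducible factors, had 9.37 and 10.06, a mean of 9.71 ± 0.49. The higher value was on the array of replicate 2, and both were clear of the threshold, by 2.64 and 3.89, with 2 and 0 reference genes higher. Arnt2, the close paralog of Arnt that is best known from neurons and kidney, had 4.43 and 4.58 (4.51 ± 0.11). Both values were below the threshold, by 2.29 and 1.59, and 755 and 513 reference genes were higher, so the signal of Arnt2 lay near the middle of the reference.

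The classical targets were divided. Tiparp, which encodes a mono-ADP-ribosyl transferase that restrains AHR, had 11.79 and 11.96 (11.88 ± 0.12). It exceeded the threshold by 5.07 and 5.79, and no reference gene was higher on either array. Cyp1a1, the xenobiotic monooxygenase gene taken as the standard readout of AHR activity, had 4.55 and 4.26 (4.41 ± 0.21). These values lay 2.17 and 1.92 below the thresholds and close to the reference medians of 4.54 and 4.38. Ahrr, the repressor that competes with AHR for ARNT, had 4.84 and 4.87 (4.86 ± 0.02), the smallest spread of the 8 genes. It was exceeded by 504 and 354 reference genes. The difference between Tiparp and the other targets is a difference in their position against the reference, since their probes cannot be set against each other.

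Nqo1 and Ido1, which other pathways also control, were nearer to the threshold. Nqo1, a quinone reductase gene that responds to AHR and NRF2, had 5.91 and 5.31 (5.61 ± 0.42), with 172 and 204 reference genes higher. Ido1, whose enzyme opens the conversion of tryptophan to the AHR ligand kynurenine and which interferon gamma induces, had 4.998 and 5.67 (5.33 ± 0.47), with 427 and 130 higher. The shortfall from the threshold was 0.81 and 0.86 for Nqo1 and 1.73 and 0.51 for Ido1. With the 90th percentile of the reference as the threshold, 6.15 and 5.64, Ido1 exceeded it on the array of replicate 2 only, and Nqo1 on neither. The spread of Ido1, 0.47, was about as large as its shortfall on that array.

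The difference between the arrays was taken as replicate 2 minus replicate 1 relative to the median of all named genes. With a single array on each side, these differences have no replicate check. The largest were those of Arnt at 0.75, Ido1 at 0.72 and Nqo1 at -0.55, and Cyp1a1 stood at -0.24. The other 4 genes lay between 0.07 and 0.22, with Ahr at 0.17 and Tiparp at 0.22. Among the 9042 genes above the threshold, 4.14% differed by more than 2-fold between the arrays, and 0 of the 3 AHR pathway genes among them did. The difference of Arnt was larger than that of 89.4% of genes above the threshold, that of Tiparp larger than 42.0% and that of Ahr larger than 33.1%. Of the 3 genes above the threshold, Arnt thus differed most between the arrays. The sign for Ahrr, 0.07, turned to -0.06 when protein-coding genes above the threshold set the median.

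**Figure D2:**
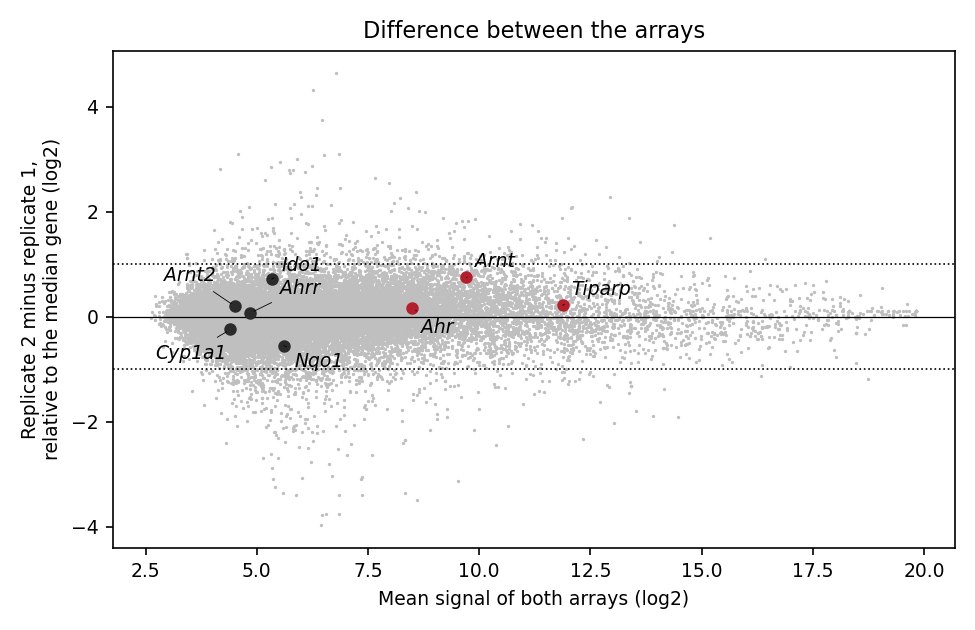
Difference between the arrays relative to the median gene (log2) against mean signal (log2) for all 28281 named genes (grey) and the 8 AHR pathway genes (red, above the threshold on both arrays; black, not above). All 8 lie between the dotted lines that mark a 2-fold difference, with Arnt (0.75), Ido1 (0.72) and Nqo1 (-0.55) farthest from 0.

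The genes around the pathway were read from 9 lists with 124 distinct measured genes, of which 75 (60.5%) were above the threshold on both arrays. The background shares were 32.0% for all named genes and 39.2% for the protein-coding ones. The lists were chosen with earlier results of these data known, so their higher share is a description and not a test. The median signals of all named and of protein-coding genes, 5.43 and 6.06, are the background for the list medians below, which describe probes and not amounts of transcript. The counts of 3 lists were over 1.5 times lower with the 99th percentile of the reference as the threshold, with which 21.9% of all named genes were above, and those counts are given beside them. The chaperone complex that holds AHR was above in part, with 4 of 6 measured genes (66.7%, median 8.19). Hsp90aa1, the inducible HSP90 gene, had 13.68 and 14.18 (13.93 ± 0.35). Ptges3, the gene of the HSP90 cochaperone p23, had 10.53 ± 0.15. The kinase gene Src (5.58 ± 0.16) was above on neither array, and Tbl3 (6.31 and 6.60) only on that of replicate 2.

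Among the bHLH-PAS relatives, which share or compete for partners, 6 of 14 were above (42.9%, median 5.75), a share near that of protein-coding genes. Hif1a, the hypoxia-inducible partner of ARNT, had 11.83 ± 0.43, and Arntl, the clock gene for BMAL1, 9.95 ± 0.14. Clock, the partner of BMAL1, had 9.24 and 10.38, a centred difference of 1.18 and the only one over 2-fold in this list. The neurodevelopmental factor genes Sim2 (3.69 ± 0.10) and Npas1 (3.79 ± 0.02) were lowest. Coactivators and corepressors that AHR and ARNT use were nearly all above, 12 of 13 (92.3%) with a median of 8.57, led by the acetyltransferase gene Crebbp (11.12 ± 0.13) and Nrip1 (10.49 ± 0.08), a corepressor of nuclear receptors. Ncoa1, a steroid receptor coactivator gene, had the largest difference between the arrays in this list, 8.12 against 9.01, and Sp1 the next, 7.79 against 8.28. Ankra2 (6.20 ± 0.17) was the 1 not above, and Ncoa7 (7.11 ± 0.06) was above but not with the 99th percentile as the threshold.

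Other targets of AHR were divided as the classical ones were, with 11 of 19 above (57.9%), 1 on the array of replicate 2 only and 7 on neither (median 7.21). With the 99th percentile 7 of 19 were above. The epidermal growth factor ligand gene Ereg had 11.14 and 11.60 (11.37 ± 0.33) and the purine oxidase gene Xdh 9.46 and 9.40 (9.43 ± 0.04). Slc7a5, a subunit gene of the transporter that carries tryptophan and kynurenine, had 8.04 and 8.66, and Lpcat2, a lysophospholipid acyltransferase gene, 7.46 and 7.96. These were the most different genes of the list, and Lpcat2 was no longer above with the 99th percentile. Fgf21, a metabolic hormone gene, had 3.79 ± 0.25. The aldehyde dehydrogenase gene Aldh3a1, of the same xenobiotic battery as Cyp1a1, had 4.08 ± 0.06, and the second member of the Cyp1a family, Cyp1a2, named after its values were seen, 4.15 and 4.19. All 3 were below the threshold on both arrays. The genes of this list that were above include several that epithelium, stroma or macrophages also express.

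Genes linked to AHR in intestinal lymphocytes were also divided, with 8 of 15 above (53.3%, median 7.23), and 5 of 15 with the 99th percentile. Maf, a transcription factor that acts with AHR at Il10 in regulatory T cells, had 11.53 and 11.97 (11.75 ± 0.31), and Il10 itself 10.59 and 11.05 (10.82 ± 0.32). Notch2 had 8.90 and 9.61, with a centred difference of 0.76, the largest among those above. The chemokine receptor gene Ccr6 (4.27 ± 0.26) and Il17a (3.99 ± 0.02) were lowest. Il22, the cytokine of group 3 innate lymphoid cells most often tied to AHR and named after its values were seen, had 4.80 and 3.85, below the threshold on both arrays.

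**Figure D3:**
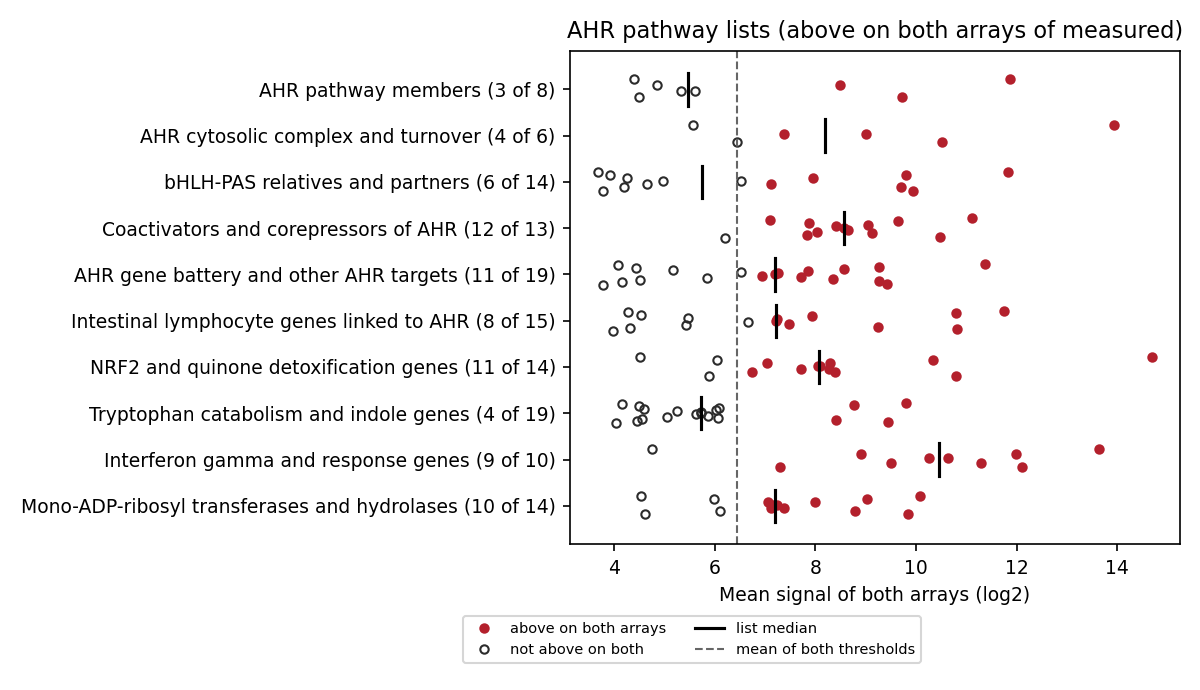
Mean signal of both arrays (log2) for each measured gene of the AHR pathway and of the 9 lists around it (red, above the threshold on both arrays; open, not above on both), with the median of each list (bar) and the mean of both thresholds (dashed line). Counts beside the names are genes above of genes measured, such as 4 of 19 for tryptophan catabolism and 12 of 13 for coactivators and corepressors.

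NRF2 and quinone detoxification genes were above in 11 of 14 cases (78.6%, median 8.07), whereas Nqo1 was not. The thioredoxin gene Txn1 had 14.92 and 14.46 (14.69 ± 0.33) and Mafk, a small MAF partner of NRF2, 10.80 ± 0.11. Nqo2, the paralog of Nqo1, had 7.87 and 8.31 and the malic enzyme gene Me1 7.84 and 8.26, the largest differences of this list. The carbonyl reductase gene Cbr3 (4.52 ± 0.06) and the cystine transporter gene Slc7a11 (5.89 ± 0.04) were lowest.

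In the tryptophan catabolism list 4 of 19 genes were above (21.1%, median 5.72). The dioxygenase genes that, like Ido1, open the kynurenine route were not above. Tdo2, the liver-type enzyme gene, had 4.30 and 4.03 (4.17 ± 0.19), and Ido2, named after its values were seen, had 4.55 and 4.44. Acmsd, further along the route, was lowest, with 4.03 for replicate 1 and 4.04 for replicate 2. The amino acid transporter gene Slc7a8 (10.20 and 9.40) and the monoamine oxidase genes Maoa (9.36 and 9.55) and Maob (8.61 and 8.92) were above, and so was Wars, the tryptophanyl-tRNA synthetase gene, which was named after its values were seen (8.27 and 8.56). Kmo, Kynu and the decarboxylase gene Ddc exceeded the threshold on the array of replicate 2 only, so that with that array alone 7 of 19 were above (36.8%), near the 38.7% of all named genes. Kmo, Kynu and Ddc were named after their values were seen.

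**Figure D4:**
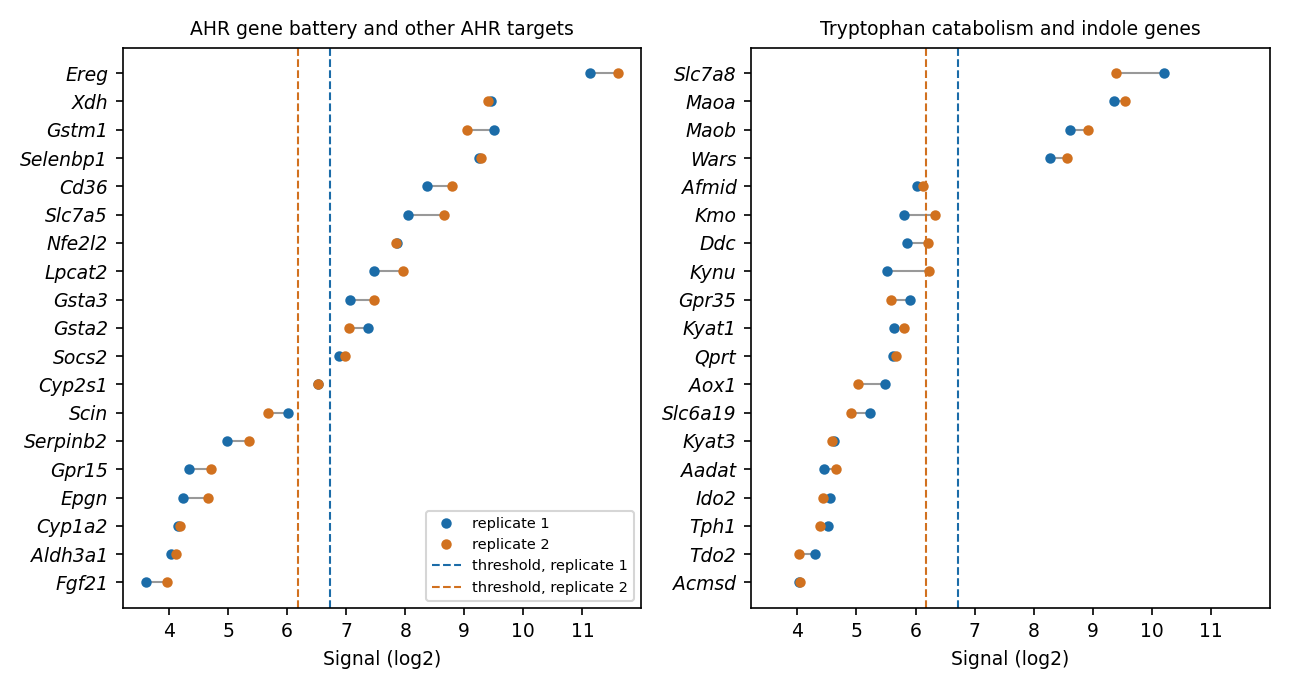
Signal (log2) on the arrays of replicates 1 and 2 (points joined by a line) for each measured gene of the AHR target list and the tryptophan list, with the threshold of each array (dashed lines). Ereg, Xdh and 9 further target genes lie right of both lines, against Slc7a8, Maoa, Maob and Wars in the tryptophan list.

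Of the interferon gamma signalling and response genes, listed because interferon gamma induces Ido1, 9 of 10 were above (median 10.45), and Ido1 was not. The 9 include Cxcl9 and Gbp2, which respond to interferon gamma, and Tyrobp, which is not part of its signalling; Cxcl9 and Gbp2 were named after their values were seen. Ifngr1, the ligand-binding receptor chain gene, had 13.38 and 13.91 (13.64 ± 0.37), and Ifngr2, its signalling chain, 8.57 and 9.25. Tyrobp, the gene of an immune receptor adaptor for which macrophages and natural killer cells are known, had 12.10 ± 0.27. Ifng itself had 7.67 and 6.92, above the threshold but not with the 99th percentile, and the feedback inhibitor gene Socs1 (4.76 ± 0.09) was above on neither array. In the list headed mono-ADP-ribosyl transferases and hydrolases, 10 of 14 genes were above (71.4%, median 7.20), and 5 of 14 with the 99th percentile. Parp12 had 10.09 ± 0.33 and the antiviral gene Zc3hav1 9.85 ± 0.52. Parp6, with 8.56 and 7.42, and Zc3hav1, with 9.48 and 10.21, differed most between the arrays, and Macrod2 (4.53 ± 0.31) and Parp16 (4.62 ± 0.33) were lowest.

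The label of the sorted cells was set against markers. Of 12 measured ILCreg and innate lymphoid markers 11 were above, with the pan-leukocyte gene Ptprc at 12.21 ± 0.10, Id2 at 12.08 ± 0.21, Id3 at 9.75 ± 0.42 and the interleukin 7 receptor gene Il7r at 8.92 ± 0.56, while Thy1 (5.64 ± 0.11) was not. The study gives a purity of over 95% after the sort. Markers of other cells were also above, 10 of 11 for epithelium (Krt8 at 15.59 ± 0.24, with Lgr5 below), 7 of 7 for stroma (Myh11 at 10.36 ± 0.07), 7 of 8 for macrophages (Lyz2 at 14.71 ± 0.07, with Cd163 below) and 5 of 7 for B and plasma cells (Jchain at 17.79 ± 0.45, with Pax5 and Tnfrsf17 below). Dpt, the highest stromal marker, was at the highest value of each array, and the difference of Dcn between the arrays equalled that of the highest values, so no spread is given for either. The stromal collagen genes separated the arrays, with 10.94 and 12.78 for Col1a2, 11.06 and 13.10 for Col3a1 and 13.54 and 15.23 for Col1a1, the last pair named after their values were seen. The array of replicate 2 was higher for all 3, by more than 2-fold. The epithelial marker Fabp1 (13.04 and 11.90) and the granulocyte marker S100a9 (7.90 and 6.70) differed by more than 2-fold in the other direction. Fabp1 was named after its values were seen. For T cells the count was 5 of 9 (Cd3e at 9.79 ± 0.16, with Cd247 at 5.13 ± 0.27), for dendritic cells 4 of 10 (H2-Aa at 14.15 ± 0.19, with Xcr1 at 4.39 ± 0.08), for endothelium 4 of 10, for group 3 innate lymphoid cells 3 of 9 and for mast cells and granulocytes 2 of 10. The background shares were 32.0% of all named genes and 39.2% of the protein-coding ones. The share of T cell markers (55.6%) was over both. Besides Cd3e, those above the threshold were Cd3g (9.11 ± 0.20), Cd3d (8.79 ± 0.26), Cd4 (7.95 ± 0.62) and Cd8b1 (7.28 ± 0.22). Cd3d, Cd4 and Cd8b1 were named after their values were seen. Of the 9 T cell markers, 1 was above on the array of replicate 2 only and 3 on neither. Dendritic cell (40%), endothelial (40%) and group 3 innate lymphoid (33.3%) markers were near the background shares. Mast cell and granulocyte markers (20%) were below them. The log2 of the summed linear signal of a list was 16.57 and 16.65 on the arrays of replicates 1 and 2 for epithelium, 15.52 and 16.38 for stroma without Dpt and Dcn, 15.18 and 15.22 for macrophages, 17.55 and 18.18 for B and plasma cells, 11.24 and 11.38 for T cells and 14.16 and 14.28 for the ILCreg markers. It was 14.16 and 14.39 for dendritic cells, 10.12 and 10.46 for endothelium, 12.66 on both arrays for group 3 innate lymphoid cells and 9.58 and 9.59 for mast cells and granulocytes. These sums add different probes, so they do not order the cell types by amount. Some rest mainly on 1 gene: Jchain (17.47 and 18.11) for B and plasma cells and H2-Aa (14.01 and 14.28) for dendritic cells. For macrophages it was Lyz2 (14.76 and 14.66). For group 3 innate lymphoid cells that gene was Tmem176a (12.36 and 12.41). Ahr, Arnt and Tiparp are also expressed in epithelial, stromal and myeloid cells. The part of such cells, or of T cells, in the signals of these genes was not tested. In such a bulk sample fewer cells of a type and less RNA per cell cannot be told apart.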

How the data were processed

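Gene expression in 2 samples of sorted ILCregs was measured on Affymetrix whole-transcript arrays. The deposited table holds 1 value per feature and array, between 2.10 and 19.86, taken as log2 signal from its range; its log base is not stated, and folds assume 2. MAS5 is named in the submitters' processing notes, with no version or role, and the sources used here do not give the summarization, the correction for background, the scaling or the genome build. On the arrays of replicates 1 and 2, 688 and 673 features lay above 16, the log2 of a 16-bit reading, through a step that no source used here states. The number of arrays limits the precision.

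Of 61344 features, 28573 carried 1 distinct symbol, 2014 several and 30757 none, and only the first were used. Symbols were updated through gene identifiers of the GRCm38.p6 table, which held 21104 of 21331 identifiers, and 783 changed. Of the resulting genes, 213 had several features, and the one with the highest mean stood for the gene. Means ± SD over both arrays, the reference threshold, differences between the arrays after subtraction of their median over named genes (-0.05) and list medians were computed with numpy 2.4.6 and pandas 2.3.3. Genes were named by rule: all measured AHR pathway genes, the 2 highest, the 2 lowest and the 2 most different genes of each pathway list. The ILCreg markers Ptprc, Il7r, Il10, Id2 and Id3 and the extremes of the marker lists were also named, with exceptions marked. The members and lists were chosen with earlier results of these data known. Promoter sequences were matched by symbol in a RefSeq table, which held 7 of 9 genes. Alternatives were other percentiles and reference genes, normalizations, symbols, the feature that stands for a gene, the centring and each array alone. The sum of stromal markers without Dpt and Dcn was chosen after seeing the data.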

Additional observations from a re-analysis of the deposited data

How the results depend on the processing

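Ahr, Arnt and Tiparp, and none of the other 5 measured AHR pathway genes, lay above the threshold under each alternative run: the 90th and 99th percentiles, keratin-associated protein and Rhox genes as the reference, the median over features, the platform's own symbols and each array alone. The count of all named genes above, 9042, was 11123 and 6198 with the 90th and 99th percentiles and 9226 to 10954 without replicate 2 or replicate 1. The count over the pathway lists, 75 of 124, was 80 and 56 with the same percentiles and 75 to 83 without a replicate. By list, the 99th percentile moved the counts by over 1.5 times for AHR targets (11 to 7) and lymphocyte genes linked to AHR (8 to 5). It did so too for the list of mono-ADP-ribosyl transferases and hydrolases (10 to 5). A stricter threshold lowers counts by construction. With the array of replicate 2 alone, tryptophan genes went from 4 to 7. The stromal sum with Dpt and Dcn was 20.61 and 20.70 on the log2 scale, fixed by features at or near the highest value. Mean signals hardly depend on the normalizations tried by construction, since both keep the mean of 2 arrays nearly as it was, so this says nothing about stability. The differences between the arrays of 5 of the 8 genes moved by over 1.5 times with the centring or normalization: Ahr had 0.17, 0.04 relative to protein-coding genes above the threshold and 0.02 after quantile normalization, and Ahrr 0.07, -0.06 and 0.13 (0.02 without centring), and relative to the same protein-coding genes Arnt2 went from 0.20 to 0.07, Tiparp from 0.22 to 0.09 and Cyp1a1 from -0.24 to -0.37. No paired analysis was possible because the series holds 1 group. With 2 arrays, signals near the reference cannot be separated from it.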
